A study of Mus musculus with 24 samples.

Results

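Barcodes found in blood T cells of a mouse and missing from its other blood cells were examined. The mice had received haematopoietic cells marked by lentiviral DNA barcodes. A barcode was included, separately for each mouse, when it held at least 0.1% of the reads of T cells and under 0.01% of the reads of B cells, of monocytes and of neutrophils of the same mouse. This rule left 6 barcodes, 1 in mouse 1, 4 in mouse 2 and 1 in mouse 3, out of 207 that reached 0.1% in T cells and 327974 distinct sequences in all files. The 207 are counted per mouse, so a barcode that reached 0.1% in T cells of more than 1 mouse counts in each. Other totals over the mice are counted in the same way. The shares in blood chose the barcodes, so they are given as a description without a test. The values in macrophages were not used in the choice.

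Samples were genomic DNA of 8 sorted populations from each of 3 mice, with 1 sample per population and mouse and 24 samples in all. They were T cells, B cells, monocytes and neutrophils of peripheral blood, Ccr2hi and Ccr2lo macrophages of the heart, and macrophages labelled M1 and M2 of the kidney. Per the labels, marrow HSCs of C57BL/6 donors were given the barcoding lentivirus pBC008 on day 5 of culture. After a further 4 days, 20000 GFP+ LSK cells were given with 100000 CD45.2+ rescue cells to each CD45.2 male recipient. All recipients (strain C57BL/6J) were 5 weeks old and had been irradiated with 9 Gy, and tissues were taken 2 months later. All populations analysed here come from irradiated, transplanted animals. The labels do not give the sort markers of M1 and M2 macrophages or the number of sorted cells, and barcoded DNA carries no expression by which the cell types could be checked.

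A barcode that enters the genome of a stem cell is inherited by all its progeny. Mature cells that carry the same barcode are therefore taken to descend from the same infected cell or its daughters, which was not tested here. How many barcodes an infected cell carried was not tested either, so numbers of barcodes are not numbers of founder cells. T cells arise from progenitors that leave the marrow and mature in the thymus, and mature T cells can live for months, whereas blood neutrophils and monocytes are replaced within days. Some tissue macrophages are renewed from circulating monocytes and others persist in their organ. Shares refer to amplified copies of barcodes and only to barcoded cells, so fewer cells of a clone and fewer copies per cell cannot be told apart.

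The 6 barcodes are shown because they are the complete outcome of the rule. They are random synthetic sequences of 52 bases, without a position in a genome, and their sites of integration were not analysed here. Each is written 5′ to 3′ in lower case, named in order of mouse and T cell share. The library alternates between G or C and A or T, and a capital marks a base that departs from this pattern.
alpha (mouse 1): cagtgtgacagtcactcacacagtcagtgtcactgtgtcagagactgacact
beta (mouse 2): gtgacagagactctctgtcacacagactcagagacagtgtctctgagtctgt
gamma (mouse 2): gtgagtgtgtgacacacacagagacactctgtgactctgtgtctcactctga
delta (mouse 2): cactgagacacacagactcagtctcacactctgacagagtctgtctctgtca
epsilon (mouse 2): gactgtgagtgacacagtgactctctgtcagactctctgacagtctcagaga
zeta (mouse 3): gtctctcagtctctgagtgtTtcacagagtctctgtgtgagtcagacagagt
The first 5 follow the alternating pattern at every base, and zeta departs from it at 1 base, position 21 from the 5′ end. None of the 6 was a near copy of another barcode. The closest sequence that reached 0.01% in any sample differed from them at 13 to 15 of the 52 bases.

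T cell barcodes missing from all other blood were small. In T cells of their own mouse, alpha held 0.102% of reads, beta 0.223%, gamma and delta 0.142% and 0.141%, epsilon 0.138% and zeta 0.288%. Ranked by T cell share among the barcodes at 0.1% or more, alpha was number 92 of 93 in mouse 1. In mouse 2, beta was number 58 and epsilon number 70 of 71, and zeta was number 33 of 43 in mouse 3. Together they held 0.102%, 0.644% and 0.288% of the T cell reads of mice 1, 2 and 3, a mean of 0.345% ± 0.275 (SD, n = 3 mice). Without mouse 2 this mean was 0.195%. The median T cell share was 0.141% over the 6 barcodes and 0.707% over all 207.

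The distance to the thresholds differed between the 6 barcodes, and alpha lay at the T cell minimum. Alpha rested on 9936 reads, and the Wilson 95% interval of its T cell share, 0.0999% to 0.104%, includes the minimum of 0.1%. Just outside, the highest T cell shares below the minimum among barcodes otherwise meeting the rule were 0.0269%, 0.0920% and 0.0916% in mice 1, 2 and 3. On the side of absence, the highest share in other blood was 0.00590% for alpha, in neutrophils, 0.00841% for beta, in monocytes, and 0.00638% for zeta, in neutrophils. For gamma, delta and epsilon the highest was in B cells, at 0.00619%, 0.00678% and 0.00446%. The barcodes that missed the rule most narrowly on this side had 0.0179%, 0.0119% and 0.0159% in their highest other blood population.

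Most T cell barcodes were also in all of the other blood populations. Of the 207 barcodes, all 3 other populations held 155 at 0.01% or more, 2 held 28 and 1 held 18, and among these 18 the population was B cells for 16. Taken singly, 9 of the 207 were under 0.01% in B cells, 30 in monocytes and 43 in neutrophils, and 22 were under it in both monocytes and neutrophils. The rule was met by small T cell barcodes only. Of the 82 that reached 1% of T cell reads, 0 met the rule, and the lowest value of their highest share in other blood was 0.0184%. The 40 barcodes between 0.5% and 1% also gave 0 members, the 57 between 0.2% and 0.5% gave 2 and the 28 between 0.1% and 0.2% gave 4.

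The corresponding rule gave many more barcodes in B cells and none in monocytes or in neutrophils, each taken alone. The 6 barcodes were 2.90% of the 207 T cell barcodes. With T cells and the myeloid cells as the populations of absence, 92 of 400 B cell barcodes qualified, 29, 27 and 36 in the 3 mice, which is 23.0%. None of 166 monocyte and none of 138 neutrophil barcodes qualified. Per mouse the rule gave 2.0 ± 1.73 T cell barcodes and 30.7 ± 4.73 B cell barcodes (SD, n = 3 mice), and the ranges did not overlap. Without mouse 2 the mean for T cells was 1.0. This difference was not tested, because both sets were defined by the values compared.

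Of the 4 barcodes of mouse 2, 3 were far more abundant in T cells of another mouse. Gamma, epsilon and delta were, in this order, the 3 most abundant barcodes in T cells of mouse 3. Gamma held 0.142% of T cell reads in mouse 2 and 15.3% in mouse 3. Delta held 0.141% in mouse 2 and 14.8% in mouse 3, and epsilon 0.138% in mouse 2 and 14.9% in mouse 3. The T cell share in mouse 2 was thus 0.927%, 0.952% and 0.930% of that in mouse 3 for gamma, delta and epsilon. Zeta, which met the rule in mouse 3, stood in the same proportion, with 0.00278% of T cell reads in mouse 2, 0.964% of its share in mouse 3.

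The same proportion held for the T cell barcodes of mouse 3 in general. Over the 17 barcodes with at least 1% of T cell reads in mouse 3, the share in T cells of mouse 2 was 0.957% of that in mouse 3 at the median, with a range of 0.897% to 1.39%. In the other 15 samples of mice 1 and 2 the median over these 17 barcodes was between 0.0251% and 0.0628%. T cells of mouse 2 thus held the T cell barcodes of mouse 3 at a nearly fixed low level, above that in those 15 samples. Whether these reads passed from the T cell library of mouse 3 into that of mouse 2 was not tested, so the count of 4 barcodes and the summed 0.644% of mouse 2 may rest in part on them. Without gamma, delta and epsilon, 1 barcode of mouse 2 was left, beta, at 0.223%.

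Outside T cells, gamma, delta and epsilon had low shares in mouse 2, in ranges that overlapped those of mouse 1, where no population held as much as 0.01% of any of them. In the 7 other populations of mouse 2, gamma had 0.00382% to 0.00624%, against 0.00383% to 0.00868% in the same populations of mouse 1. Delta had 0.00415% to 0.00685% in mouse 2, against 0.00429% to 0.00876% in mouse 1. Epsilon had 0.00282% to 0.0101% in mouse 2, against 0.00270% to 0.00569% in mouse 1. Its values in Ccr2hi macrophages (0.0101%) and M2 macrophages (0.00759%) of mouse 2 were above its highest in mouse 1.

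In mouse 3 itself these 3 barcodes were not missing from other blood. Gamma held 2.40% of B cell, 0.935% of monocyte and 0.974% of neutrophil reads there. Delta moved with gamma, at 2.32% of B cell, 0.911% of monocyte and 1.02% of neutrophil reads, and the ratio of delta to gamma lay between 0.939 and 1.05 in all 8 populations, although their sequences differ at 24 bases. Epsilon was the one concentrated in T cells, with 14.9% of their reads against 0.123% in B cells, 0.313% in monocytes and 0.249% in neutrophils. It was 0.0295% in Ccr2hi, 0.0208% in Ccr2lo, 0.0992% in M2 and 0.0941% in M1 macrophages of mouse 3.

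With barcodes left out of a mouse where another mouse held them at 100 times the level or more, alpha, beta and zeta remained, 1 in each mouse. The same step left all 92 B cell barcodes. Alpha, beta and zeta were low in the other animals. Over the 16 samples of the other mice alpha reached at most 0.000425%, beta at most 0.000129% and zeta at most 0.00278%, in the T cells of mouse 2 described above, and at most 0.000120% in mouse 1.

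Alpha, of mouse 1, had nearly the same share in T cells and in 3 of the 4 macrophage subsets. It held 0.102% of T cell reads and 0.106% of Ccr2hi, 0.0849% of Ccr2lo, 0.0966% of M2 and 0.0306% of M1 macrophage reads. In the other blood cells of mouse 1 it had 295 reads in B cells (0.00272%), 402 in neutrophils (0.00590%) and 22 in monocytes (0.000192%). The monocyte value was no higher than the 0.000244% and 0.000259% of monocytes in the other mice. In each of the 4 macrophage subsets, by contrast, alpha exceeded its highest share in the same subset of the other mice, by 144-fold in M1 to 440-fold in Ccr2hi macrophages.

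Beta, of mouse 2, was mainly a T cell barcode with a smaller part in Ccr2lo and M2 macrophages. It held 0.223% of T cell reads. In the heart it had 0.00342% of Ccr2hi and 0.0250% of Ccr2lo macrophage reads, and in the kidney 0.0142% of M2 and 0.00484% of M1 macrophage reads. The Ccr2hi and M1 values are under the 0.01% taken as presence. Among other blood cells, monocytes had 812 reads of beta (0.00841%), B cells 460 (0.00369%) and neutrophils 11 (0.000126%). Its share in Ccr2lo macrophages was 11.2% of that in T cells, and its share in M2 macrophages 6.36%.

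Zeta, of mouse 3, had the highest T cell share of the 6 and the lowest level in M1 macrophages. It held 0.288% of T cell reads, 0.00311% of Ccr2hi, 0.0111% of Ccr2lo and 0.00992% of M2 macrophage reads. In M1 macrophages it had 10 reads (7.90e-05%), against 7.76e-05% and 0.000120% in M1 macrophages of the other mice, so it was not detectable there above the level of animals that lack it. B cells had 451 reads (0.00424%), monocytes 460 (0.00448%) and neutrophils 611 (0.00638%). These were 35.4-fold, 48.1-fold and 145-fold its highest shares in the same populations of the other mice, so that zeta was under the threshold in other blood but above that background.

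Set against the same populations of the other mice, each of the 3 barcodes was above background in part or all of its other blood. This background does not cover reads passed between samples of the same mouse, which was not tested. Alpha was at background in monocytes only, being 8.26-fold and 19.1-fold above it in B cells and neutrophils. Beta was nearest to background in neutrophils, at 2.01-fold, and 28.6-fold and 321-fold above it in B cells and monocytes. The PCR used no molecular identifiers, so numbers of reads are not numbers of cells, and intervals cover counting error only.

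Each macrophage subset held between 1 and 3 of the 6 barcodes at 0.01% or more. Ccr2hi macrophages held 2 (alpha and epsilon), Ccr2lo macrophages 3 (alpha, beta and zeta), M2 macrophages 2 (alpha and beta) and M1 macrophages 1 (alpha). Among all 207 barcodes at 0.1% in T cells the percentage held was 95.7% in Ccr2hi, 95.2% in Ccr2lo, 94.7% in M2 and 61.4% in M1 macrophages. The same limit of 0.01% served both sets, which differed in size. Their median T cell share was 0.141% over the 6 and 0.707% over the 207. In mouse 2, gamma and delta were in none of the subsets. Of all 207 T cell barcodes 2 were in none, and these are the same 2, as counted in mouse 2. In mouse 3 all 4 subsets held both. Gamma had 2.00% of Ccr2hi, 1.40% of Ccr2lo, 1.32% of M2 and 0.385% of M1 macrophage reads there. Delta had 2.06% of Ccr2hi, 1.32% of Ccr2lo, 1.31% of M2 and 0.361% of M1 macrophage reads in mouse 3. Epsilon in Ccr2hi macrophages, with a Wilson 95% interval of 0.00955% to 0.0107%, and zeta in M2 macrophages, with 0.00936% to 0.0105%, cannot be placed on either side of the threshold.

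As a summed share the 6 barcodes were a trace of every macrophage subset. In Ccr2hi macrophages they added up to 0.106%, 0.0265% and 0.00311% in mice 1, 2 and 3, and in Ccr2lo macrophages to 0.0849%, 0.0414% and 0.0111%. In M2 macrophages they added up to 0.0966%, 0.0319% and 0.00992%, and in M1 macrophages to 0.0306%, 0.0156% and 7.90e-05%. The means were 0.0453% ± 0.0540 in Ccr2hi, 0.0458% ± 0.0371 in Ccr2lo, 0.0462% ± 0.0451 in M2 and 0.0155% ± 0.0153 in M1 macrophages (SD, n = 3 mice each), with ranges that overlapped between all subsets. These means rested largely on alpha, and without mouse 1 they were 0.0148% in Ccr2hi, 0.0262% in Ccr2lo, 0.0209% in M2 and 0.00786% in M1 macrophages. In mouse 2, beta alone gave 0.00342% in Ccr2hi, 0.0250% in Ccr2lo, 0.0142% in M2 and 0.00484% in M1 macrophages. The rest of the sums of mouse 2 came from gamma, delta and epsilon, whose ranges outside T cells overlapped those of mouse 1. M2 exceeded M1 macrophages in each mouse, by 0.0660, 0.0163 and 0.00984 percentage points. The sum over all 207 T cell barcodes ran the other way in each mouse, with 31.4%, 44.8% and 25.7% of M2 and 75.2%, 89.5% and 57.1% of M1 macrophage reads in mice 1, 2 and 3. Ccr2hi exceeded Ccr2lo macrophages in mouse 1 only, by 0.0213 percentage points, and the difference was -0.0149 and -0.00797 in mice 2 and 3. No p-value is given for these sums, since the barcodes were chosen with results of these data known.

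Single barcodes were compared between paired subsets within their own mouse, with 0.01% added to each share. None of the 6 was over 4-fold higher in M2 than in M1 macrophages, while 67.6% of the 1064 barcodes at 0.1% or more in any population were. The folds of the 6 lay between 1.07 for gamma and 2.62 for alpha. The 1064 were chosen by shares that include those in M2 macrophages, where 566 of them held 0.1% or more. Of the 6, 0 did, so the 67.6% is not a like comparison for them. For the heart, 0 of the 6 and 0.282% of the 1064 barcodes were over 4-fold higher in Ccr2hi than in Ccr2lo macrophages, and the folds ran from 0.383 for beta to 1.44 for epsilon. At such low shares the added 0.01% keeps folds near 1. Without it, zeta was 126-fold higher in M2 (1137 reads) than in M1 macrophages (10 reads) and alpha 3.15-fold, and beta in Ccr2hi was 0.137 times its level in Ccr2lo macrophages.

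Across the 3 mice, edgeR's quasi-likelihood test with Benjamini-Hochberg adjustment called none of the barcodes it tested. Between M2 and M1 macrophages 1086 barcodes passed the filter on low counts, among them 5 of the 6 (all but beta), and 0% were called, with 8 at an unadjusted p under 0.05. Between Ccr2hi and Ccr2lo macrophages 1621 passed, among them all 6, and 0% were called, with 0 at an unadjusted p under 0.05. DESeq2 called 107 and 0 barcodes in these comparisons, among the 169 of 1086 and 296 of 1621 for which it gave an adjusted p. It gave no p-value for any of the 5 members in the renal comparison and an adjusted p for 1 of the 6 in the cardiac one, epsilon, which was not called. A barcode carried by 1 mouse has no replicate in the other mice, so these counts say little about the 6.

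Compared with all 6 T cell barcodes, the B cell counterparts were found in larger part in Ccr2hi, Ccr2lo and M2 macrophages. They were found in smaller part in M1 macrophages. Against 2, 3, 2 and 1 of the 6 T cell barcodes, 87.0% of the 92 B cell barcodes missing from other blood were at 0.01% or more in Ccr2hi, 88.0% in Ccr2lo, 88.0% in M2 and 8.70% in M1 macrophages. With gamma, delta and epsilon left out, the 4 subsets held 1, 3, 2 and 1 of the remaining 3 T cell barcodes, in the same order. All 92 B cell barcodes stayed, so the difference in Ccr2lo macrophages then ran the other way. Over all 6, the median share in Ccr2hi macrophages was 0.00649% for the T cell barcodes and 0.0507% for the B cell barcodes. In Ccr2lo macrophages it was 0.00866% for the T cell barcodes and 0.0673% for the B cell barcodes, and in M2 macrophages 0.00875% for the T cell barcodes and 0.0451% for the B cell barcodes. In M1 macrophages the order was the opposite, at 0.00399% for the T cell barcodes and 0.000130% for the B cell barcodes. The T cell median there lies between gamma (0.00382%) and delta (0.00415%), which had 0.00383% and 0.00439% in M1 macrophages of mouse 1. In Ccr2hi macrophages it also lies between gamma (0.00612%) and delta (0.00685%), which had 0.00640% and 0.00638% in those of mouse 1. The T cell median lies between gamma and zeta in Ccr2lo macrophages, and between epsilon and zeta in M2 macrophages. The differences were not tested.

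The fixed limit of 0.01% also sets aside T cell barcodes that are concentrated in T cells but abundant. Requiring instead a T cell share at least 10-fold that of every other blood population, a rule added after the values were seen, gave 55 barcodes, 24, 21 and 10 in mice 1, 2 and 3, with all 6 among them. They held 31.7%, 27.4% and 31.9% of T cell reads. Epsilon alone gave 14.9% in mouse 3, and it was counted in mouse 2 as well, with gamma and delta. The median of their highest share in other blood was 0.0596%, 0.0320% and 0.0209% in the 3 mice, and the population with that share was B cells for 31, monocytes for 14 and neutrophils for 10.

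The most concentrated barcode of each mouse by this measure is shown because none met the rule of absence.
Mouse 1: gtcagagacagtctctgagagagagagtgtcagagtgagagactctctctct
Mouse 2: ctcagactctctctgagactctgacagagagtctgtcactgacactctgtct
Mouse 3: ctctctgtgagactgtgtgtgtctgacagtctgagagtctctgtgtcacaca
That of mouse 1 held 1.72% of T cell reads and at most 0.0361% in other blood, in neutrophils. That of mouse 2 held 1.35% of T cell reads and at most 0.0244%, in monocytes, and that of mouse 3 held 1.22% and at most 0.0184%, in neutrophils. T cell shares of the 6 barcodes were between 17.2-fold (alpha) and 45.2-fold (zeta) their highest in other blood, and those of these 3 were 47.6-fold, 55.2-fold and 66.5-fold. The barcode of mouse 1 had 0.0346% of Ccr2hi, 0.0643% of Ccr2lo, 0.0490% of M2 and 0.0199% of M1 macrophage reads. That of mouse 2 had 0.00747% of Ccr2hi, 0.0206% of Ccr2lo, 0.00699% of M2 and 0.000240% of M1 macrophage reads. That of mouse 3 had 0.0288% of Ccr2hi, 0.0524% of Ccr2lo, 0.0239% of M2 and 0.000316% of M1 macrophage reads. In M1 macrophages those of mice 2 and 3 were thus nearly missing, which was not particular to them. Over the 1064 barcodes at 0.1% or more in any population, the median share in M1 macrophages was 0.000337%, and 30.6% reached 0.01%. Over all 55, 47 were at 0.01% or more in Ccr2hi, 48 in Ccr2lo, 48 in M2 and 20 in M1 macrophages. Among all 207 T cell barcodes the percentages were 95.7%, 95.2%, 94.7% and 61.4%, in the same order. The median share of reads over the 55 was 0.0570% in Ccr2hi, 0.0524% in Ccr2lo, 0.0537% in M2 and 0.00627% in M1 macrophages.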

How the data were processed

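The deposited files hold 1 sample each, with a raw read count for every distinct barcode, per the file headers. Per the labels' protocols, barcodes were amplified in 18 PCR cycles and indexed in 9 to 11 more. The trimming and counting of reads by the authors is not stated in the labels or headers and so not given here. Samples held 6808221 to 15745444 reads, so that 0.01% corresponds to 681 to 1575 reads. Samples were grouped by the population and mouse in their titles. Mouse numbers pair the samples: the overlap of repertoires (smaller share of each barcode, summed) averaged 0.410 within mice and 0.0136 between different populations of different mice. Counts were divided by the sample total (Python 3.11.15, pandas 2.3.3), and Wilson intervals used scipy 1.17.1. Tests of single barcodes used edgeR 4.0.16 in R 4.3.3 (TMM, filterByExpr, no block, adjusted p under 0.05), with DESeq2 1.42.0 as an alternative. The rule and the edgeR fit were run on simulated data. The simulated members lay far from both thresholds, and for edgeR every mouse held a barcode at the same level. These runs therefore do not bear on barcodes near the thresholds or carried by 1 mouse. Members and alternatives were chosen with earlier results of these data known. The named barcodes are the up to 5 members with the highest T cell share per mouse, the member highest in macrophages, the highest missing from macrophages, and those nearest the thresholds.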

Additional observations from a re-analysis of the deposited data

How the results depend on the processing

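The number of barcodes, 2.0 per mouse, depended on the thresholds used. It was 4.67 with 0.05% in T cells, 0.667 with 0.2%, 0.333 with absence under 0.005%, 4.67 under 0.02%, 1.0 with barcodes 100 times as abundant in another mouse left out and 18.3 with the 10-fold rule, which was added after the values were seen. Leaving out each mouse gave 1.0 to 2.5, the lowest without mouse 2. Their summed T cell share was 0.0461% with absence under 0.005%, 1.54% under 0.02% and 30.4% with the 10-fold rule. Summed shares in macrophages were 0.184% in M2, 0.147% in Ccr2hi and 0.122% in Ccr2lo with 0.05% in T cells, and 0.265%, 0.165% and 0.155% with absence under 0.02%. With absence under 0.005% the share in Ccr2lo was 0.00133%. With the 10-fold rule they were 1.73%, 1.86% and 2.27%, and 0.226% in M1. Presence, as a mean percentage per mouse, was 100% in M2 and Ccr2hi macrophages with 0.001% as presence. With absence under 0.005% it was 100% in Ccr2hi and 0% in Ccr2lo macrophages, from 1 barcode, epsilon. With 0.1% as presence it was 0% in Ccr2lo, and the mean percentage per mouse of barcodes in no subset was 66.7%. Barcodes over 4-fold higher in M2 than M1 macrophages averaged 32.5% with 0.05% in T cells, 28.9% with absence under 0.02%, 14.3% with the alternating pattern only (2 mice, zeta lost), 33.3% with 0.001% added or over 2-fold, and 48.8% with the 10-fold rule, against 0% as reported. DESeq2 called 107 barcodes between M2 and M1 macrophages, where edgeR called 0. With the mouse as a block, edgeR called 0 in both comparisons, as it did without TMM, with the other filters, after merging and without each mouse. Merging barcodes 1 mismatch apart and thinning to equal depth left 6 barcodes and kept their T cell shares within their intervals. Thinning put epsilon in Ccr2hi macrophages below presence. The cause of these changes was not tested, other than that looser thresholds admit more barcodes. A share of 0.01% corresponds to at least 681 reads, and the numbers of sorted cells are unknown.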
